A study of Mus musculus with 18 samples.

Results

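Long intergenic noncoding RNA (lincRNA) genes lie between protein-coding genes and are transcribed, usually at low levels, into spliced RNAs with no recognised protein product. Some act in the nucleus on chromatin or on neighbouring genes, some act in the cytoplasm by binding proteins, and others are precursors from which miRNAs or small nucleolar RNAs are cut. In cartilage, long noncoding RNAs have been studied in chondrocyte differentiation and in osteoarthritis. The genes described here carried the gene type lincRNA in mouse GENCODE M21, leaving out H19, Meg3, Malat1 and Neat1 by name, and had at least 10 estimated counts in at least 3 libraries. Of 5854 annotated lincRNA genes, 5622 were in the count files and 1459 met the rule, out of 49184 genes of all types. At the count threshold, 1700110C19Rik, 2310008N11Rik and 4930532G15Rik lay just inside, each with 10 counts in the library that ranks 3 by count. Gm36635, Gm47549 and Gm45824 lay just outside, with 9.94, 9.80 and 9.76 counts in that library. The statistical filter kept 1383 of the 1459 genes in the fit on 15 libraries and 1396 in the fit on 18 libraries, and 61 were in neither.

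Total RNA depleted of ribosomal RNA was sequenced from the femoral condyle cartilage of male C57Bl/6J mice aged 12 weeks. The right knee received a single load of 12 N, which ruptured the anterior cruciate ligament (ACL), the ligament that stops the tibia sliding forward under the femur. Injured right knees and unloaded contralateral left knees were collected 1 day and 7 days later, with 3 libraries in each of these 4 groups, and 6 libraries came from naïve mice that were not loaded and carry the day 7 label, so comparisons of day 1 with naïve cartilage also differ in the labelled day. Knees of several mice were pooled for each library, the contralateral and injured knees came from the same mice, and the pools are not matched in the labels, so P-values measure the spread between pools. There were 6 naïve mice, and their left and right knees went into different pools of several mice, so the naïve libraries are not from 6 separate sets of mice. Which of them share mice is not in the labels, and the SDs and all fits treat them as 6 separate samples, so the naïve spread may be too small. Pools of day 7 held 4 mice, while the sources differ between 2 and 4 for day 1 and naïve pools, so pool size may differ between the day 7 libraries and the groups they are compared with. The libraries held between 15699918 and 40909899 counts assigned to genes.

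The libraries were labelled as chondrocytes, and Col2a1, the main collagen of cartilage, led a list of 15 chondrocyte markers whose summed level was 5217 to 9435 CPM (counts per 1e+06 counts) in naïve libraries and 8811, 10295 and 10703 in day 7 injured libraries. Of these 15 genes 4 rose and 1 fell, with a median log2 fold change of 0.30. Markers of other cells were also abundant. A list of erythroid markers led by the haemoglobin gene Hbb-bs summed to 30822 to 41316 CPM in naïve libraries and to 27523, 23409 and 16695 at day 7 after injury, below every naïve library, and 5 of its 9 tested genes fell. A neutrophil list led by Ngp summed to 10405 to 15380 CPM and to 11185, 8626 and 8169, with 2 of 11 genes lower. A synovial fibroblast list led by Col1a1 summed to 11642 to 19021 CPM in naïve libraries, and 6 of 12 genes rose. It summed to 56857, 17497 and 24079 CPM in day 7 contralateral and to 75102, 71416 and 82555 in day 7 injured libraries. Among 10 adipocyte markers led by Cfd, 6 fell. An osteoblast list also led by Col1a1 summed to 10085 to 18376 CPM in naïve libraries, with 2 genes higher and 2 lower of 11. It summed to 53658, 17429 and 23654 in day 7 contralateral and to 52860, 48879 and 56583 in day 7 injured libraries. Both lists led by Col1a1 count that gene, so their sums are not independent. A proliferation list led by Mki67 summed to 2762 to 3230 CPM in naïve libraries and to 2169, 2553 and 2093 after injury, below every naïve library, although none of its 10 genes was called. A muscle list led by Myh4 summed to 2952 to 9832 CPM and to 4600, 2239 and 3957, with 1 of 11 genes lower and a median log2 fold change of -0.80. Endothelial markers rose in 4 of 10 cases, 1 of 9 osteoclast markers rose, 1 of 10 B cell markers fell, and none of 11 macrophage markers was called. No marker of any list was at 0 in all day 7 injured libraries. In bulk RNA, fewer cells of a type and less RNA per cell cannot be told apart, and the part of these cell markers in the lincRNA results was not tested. The first day 7 contralateral library stood apart: 120 of the 1459 lincRNA genes had no counts in it, its erythroid list summed to 64680 CPM and its chondrocyte list to 15531 CPM, and the calls and medians on that group are also given without it.

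The lincRNA genes that hold small RNAs can be shown by the sequences they carry. Among the 1459 genes, 35 enclosed a miRNA gene on their own strand (73 miRNA genes in all, of which 55 matched RefSeq entries, GRCm38.p6). Mirg, which rose after injury, spans 14 of these miRNA genes in the Dlk1-Dio3 domain on chromosome 12, while Mir142hg and A230057D06Rik fell. Mature miRNAs were not measured in these libraries, so only the host transcripts have values here. The paper also reports small RNA sequencing of this cartilage, which was not used. The mature RNAs below are written 5′ to 3′ with the seed, bases 2 to 8, in capitals. They are shown because miR-453 and miR-496a-5p of Mirg share a seed, and because miR-410-3p of the rising host Mirg has the seed of miR-344d-3p and miR-344e-3p of the falling host A230057D06Rik.
mmu-miR-134-5p (Mirg): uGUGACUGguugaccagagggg
mmu-miR-382-5p (Mirg): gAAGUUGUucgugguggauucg
mmu-miR-453 (Mirg): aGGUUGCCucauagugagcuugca
mmu-miR-496a-5p (Mirg): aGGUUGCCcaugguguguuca
mmu-miR-410-3p (Mirg): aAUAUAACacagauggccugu
mmu-miR-344d-3p (A230057D06Rik): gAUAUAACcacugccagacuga
mmu-miR-344e-3p (A230057D06Rik): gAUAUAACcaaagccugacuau
mmu-miR-142a-5p (Mir142hg): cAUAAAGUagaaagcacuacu
mmu-miR-142a-3p (Mir142hg): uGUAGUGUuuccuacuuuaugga

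Some lincRNA genes start beside a protein-coding gene on the opposite strand, and a pair of such starts is shown because one neighbour was higher at day 7 beside a lincRNA gene whose own call held under few alternatives, and the other was not called beside a lincRNA gene that rose. Each window runs from 250 bases before to 50 bases after the RefSeq start (GRCm38.p6), and 619 of the 1459 genes had one. The first belongs to Gm17501, divergent from Ccn1, a matricellular protein gene, at chr3:145649827-145650126 on the plus strand. The second belongs to Snhg18, divergent from Sema5a, a semaphorin gene, at chr15:32244613-32244912 on the minus strand. Capitals mark matches to any of 6 motifs, searched on both strands with overlaps allowed. The letters were TGANTCA for the AP-1 motif and TGACGTCA for the CRE motif. They were GGAATG for the TEAD motif and TATAAA for the TATA box. They were GGGCGG for the Sp and KLF motif, and the NRF1 motif was searched as well.
Gm17501: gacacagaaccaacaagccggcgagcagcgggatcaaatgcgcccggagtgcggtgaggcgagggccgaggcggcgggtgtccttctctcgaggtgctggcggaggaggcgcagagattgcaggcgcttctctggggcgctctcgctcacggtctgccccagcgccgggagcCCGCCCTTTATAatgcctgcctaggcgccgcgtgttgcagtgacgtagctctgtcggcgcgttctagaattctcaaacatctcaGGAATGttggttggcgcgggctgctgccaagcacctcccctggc
Snhg18: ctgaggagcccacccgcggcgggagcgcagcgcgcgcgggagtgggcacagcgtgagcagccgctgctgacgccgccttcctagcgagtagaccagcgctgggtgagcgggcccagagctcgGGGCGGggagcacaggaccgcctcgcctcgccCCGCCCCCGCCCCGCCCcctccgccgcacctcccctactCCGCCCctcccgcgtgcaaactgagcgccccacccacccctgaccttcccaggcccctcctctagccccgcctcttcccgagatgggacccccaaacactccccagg
The Gm17501 window held 1 match each to the TEAD motif, the TATA box and the Sp and KLF motif, and the Snhg18 window held 5 to the Sp and KLF motif. Over 32851 RefSeq promoters, the TEAD motif was in 14.7%, the TATA box in 13.6%, the Sp and KLF motif in 35.7%, AP-1 in 7.81%, CRE in 1.79% and NRF1 in 0.971%. Over the 781 windows of these 619 lincRNA genes, some of which have several RefSeq starts, the Sp and KLF motif was in 18.2% and the TEAD motif in 16.9%. A match of letters is a description and not a binding site.

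The lincRNA genes were mostly low and many were anonymous. Per length, the median lincRNA gene tested had 0.351 TPM (transcripts scaled to the same total in every library) over naïve libraries, against 3.85 for protein-coding genes tested. Of the 1459 genes 268 reached 1 TPM and 27 reached 10. The 10 highest genes held 39.7% of the summed lincRNA TPM. They included Rmrp, the RNA of the RNase MRP enzyme, with 388 ± 232 TPM (SD, n = 6), Gm29408 with 136 ± 49.9, Mir142hg with 35.8 ± 12.9 and 2900097C17Rik, the mouse Norad gene, with 30.7 ± 3.04. The values of Rmrp, Gm29408 and 2900097C17Rik are uncertain. Rmrp shared 271 of 281 bases at 100% identity with a separate ribozyme entry. All 216 bases of Gm29408 matched Gm26809 at 98.1% identity, and 2537 of 4915 bases of 2900097C17Rik matched Gm7292 at 99.2%. Others of the 10, such as AC158975.2 (1854 of 1875 bases with Gm42427 at 99.7%), also shared sequence, so the 39.7% is uncertain too. By annotation, 920 genes overlapped no other gene, 137 were single-exon genes, and the median distance to the nearest protein-coding gene was 21800 bases. RefSeq held 779 of the symbols, 746 as long noncoding RNA and 22, among them Zfp469, as protein-coding.

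Less of the RNA pool came from lincRNA genes at day 7 after injury. They took 0.330%, 0.336% and 0.337% of all gene counts in the day 7 injured libraries. In naïve libraries the lowest share was 0.401%, the median 0.446% and the highest 0.523%, so that the groups did not overlap. The day 1 injured libraries were at 0.477%, 0.579% and 0.539%, and the day 1 contralateral libraries at 0.504%, 0.497% and 0.501%. The day 7 contralateral libraries were at 0.312%, 0.446% and 0.422%, and the lowest of these was the first library, which stood apart. Without the most abundant lincRNA gene of each library, the mean shares were 0.403% for naïve, 0.452% for day 1 injured and 0.293% for day 7 injured cartilage. The contralateral means were 0.431% at day 1 and 0.343% at day 7, so the order of the groups did not rest on that gene. These are shares of raw counts, and the TMM factors, which correct for a few abundant genes that take up reads, were 0.838, 0.829 and 0.852 in the day 7 injured libraries, 0.696 in the first day 7 contralateral library and 0.962 to 1.12 in naïve libraries. Divided by these factors, the shares were 0.394%, 0.405% and 0.396% after injury and 0.417% to 0.482% in naïve libraries, still without overlap, but the mean was 10.5% lower than in naïve libraries where the raw share was 27.4% lower. The day 7 contralateral libraries were then at 0.448%, 0.414% and 0.418%, and the first and the third of them lay within the naïve range. Fewer genes were also seen at 0.5 CPM or more, with 690, 755 and 796 in day 7 injured libraries against 859 to 1015 in naïve libraries and 938 to 1041 at day 1 after injury. The day 7 contralateral libraries had 716, 845 and 854, also below every naïve library, and the first of them lay within the injured range. The raw share and the number of genes were outside the naïve range in all 3 day 7 injured libraries, and the number of genes was so in the contralateral libraries of that day as well.

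**Figure D1:**
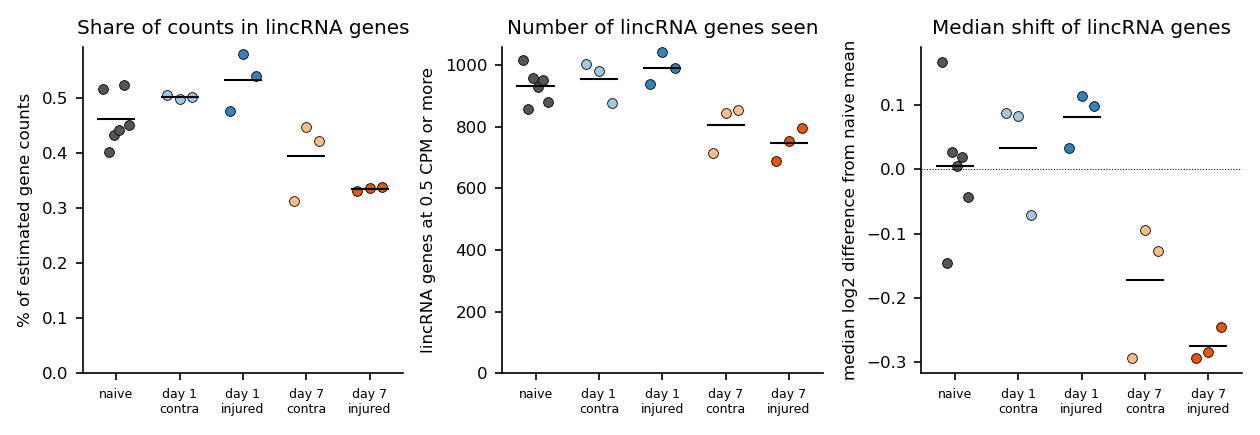
Each point is 1 library and each line a group mean. The left panel gives the percentage of gene counts in the 1459 lincRNA genes, and the middle panel the number of them at 0.5 CPM or more. The right panel gives the median log2 difference in CPM + 0.5 from the naïve mean over the 1383 lincRNA genes tested. For a naïve library, that mean leaves out the library itself. The 3 day 7 injured libraries sit at 0.330% to 0.337%, below all 6 naïve libraries.

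The comparison of day 7 injured with naïve cartilage asked which transcripts changed after abnormal loading. A gene was called at a false discovery rate (FDR) of at most 0.05 and at least 1.5-fold in edgeR's quasi-likelihood test. Of 1383 lincRNA genes tested, 18 rose, which was 1.30% beside 10.4% of all genes tested, and 209 fell, which was 15.1% beside 6.11% of all genes. Protein-coding genes went the other way, with 13.1% higher against 3.80% lower. Over each class, the median log2 fold change was -0.50 for lincRNA genes, 0.05 for protein-coding genes and -0.04 for all genes, and 85.0% of lincRNA genes lay below 0. Antisense RNA genes, another noncoding class, were like the lincRNA genes, with 22 of 1328 higher, 207 lower and a median of -0.49. The difference between the noncoding classes was not tested. Every day 7 injured library was below every naïve library for 226 lincRNA genes, 16.3% beside 10.8% of all genes, and above for 23, 1.66% beside 17.4% of all genes. The median lay between -0.54 and -0.44 under the alternative settings tried. However, 146, 138 and 139 lincRNA genes fell without injured replicates 1, 2 and 3, and calls of all genes were not counted in those fits.

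**Figure D2:**
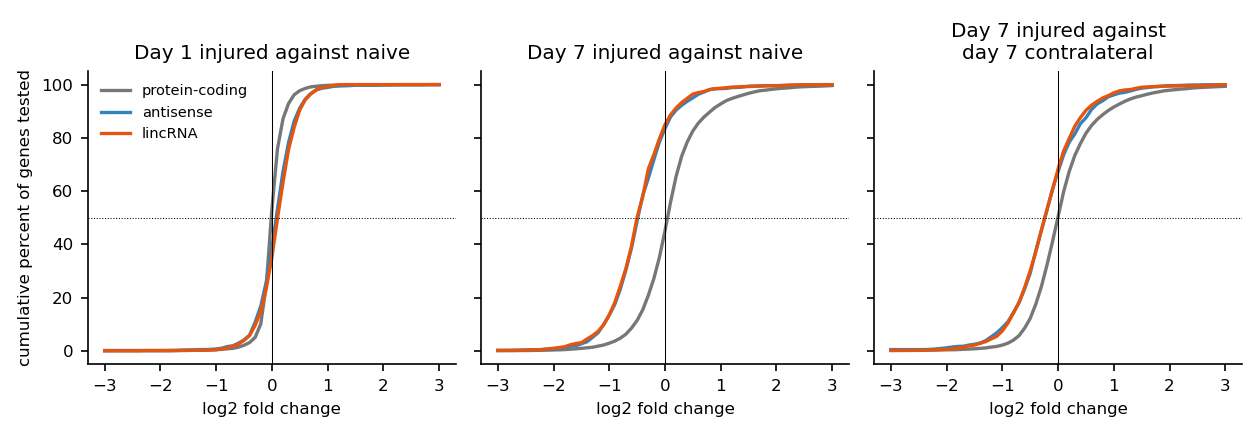
Cumulative percentage of genes tested (y axis) at or below each log2 fold change (x axis) for lincRNA, antisense and protein-coding genes in 3 comparisons. At day 7 after injury against naïve libraries the lincRNA and antisense curves cross 50% at -0.50 and -0.49 and the protein-coding curve at 0.05. At day 1 the lincRNA median is 0.10.

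The shift was seen at every level of abundance. In 3 equal ranges of the lincRNA genes by mean naïve CPM, with limits at 0.508 and 1.13 CPM, the medians were -0.47, -0.53 and -0.49, and 29, 67 and 113 genes fell (6.29%, 14.5% and 24.5%). Protein-coding genes split at the same limits had medians of -0.20, -0.30 and 0.07, and 3.89%, 10.7% and 3.17% of them fell. The high range had no upper limit and held 13853 of the 16086 coding genes tested. The lincRNA genes in it had a median of 2.32 CPM, so abundance was not matched between the classes there. The share of falling lincRNA genes was nearer to that of coding genes in the low and middle ranges than in the unmatched high one. This difference was not tested, and among antisense genes the share was 4.76%, 13.6% and 28.0%. The median was below 0 in each subclass of gene structure and position. Genes of a single exon had a median of -0.37 (6 higher and 17 lower of 133), genes of 2 to 3 exons -0.50 (7 and 114 of 793) and genes of 4 or more -0.54 (5 and 78 of 457). Genes that overlapped no other gene had a median of -0.51 (11 and 137 of 873), against -0.48 for genes that did (7 and 72 of 510). Genes more than 50000 bases from a coding gene had a median of -0.55 (4 and 73 of 457), and those that started within 1000 bases of one in the divergent direction -0.37 (5 and 11 of 88). These differences between subclasses were not tested.

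Zfp469 was among the more abundant genes that rose, with 25.7 ± 6.42 CPM (SD, n = 6) in naïve and 123 ± 39.3 CPM (n = 3) in day 7 injured libraries. It (ENSMUSG00000043903, chr8:122269569-122272650, plus strand, 1 exon) is annotated in RefSeq as a zinc finger protein gene, and its human counterpart is mutated in brittle cornea syndrome, a connective tissue disorder. In naïve libraries it had a low of 20.2, a median of 23.8 and a high of 37.5 CPM. The day 7 contralateral libraries were at 21.0, 25.1 and 31.0 CPM and the day 7 injured libraries at 88.7, 115 and 166 CPM. All 3 injured libraries were above all others at day 7 and above the naïve ones. The log2 fold change was 2.28 (SE 0.24, FDR 3.68e-06) against naïve and 2.26 (SE 0.29, FDR 2.65e-05) against contralateral libraries. The gene lies within Gm20388 on the same strand, a coding entry whose own log2 fold change was 0.50 (FDR 0.0288), below the 1.5-fold limit.

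Of the 18 genes that rose, Mirg and Gm26945 lie in the imprinted Dlk1-Dio3 domain. Mirg (chr12:109729764-109749460, plus strand, up to 17 exons), the host of the miRNA cluster shown above, had a low of 0.593, a median of 1.01 and a high of 1.79 CPM in naïve libraries. It had 0.701, 0.669 and 0.743 CPM in day 7 contralateral libraries and 3.27, 4.50 and 5.60 CPM in day 7 injured libraries, with no overlap. The log2 fold change was 2.07 (SE 0.31, FDR 0.000123) against naïve and 2.65 (SE 0.38, FDR 9.19e-05) against contralateral libraries. Gm26945 (chr12:109640341-109642351), which lies in the same domain on the same strand, had 0.863, 1.27 and 1.20 CPM after injury against 0.138 to 0.455 in naïve libraries, and rose by 2.18 on the log2 scale (SE 0.58, FDR 0.0104). Other genes of the domain also rose: Meg3, left out by name, by 1.56, Rian by 2.52, and the coding genes Rtl1 by 2.38 and Dlk1 by 2.49. The maternally expressed RNAs and the paternally expressed coding genes named here thus moved in the same direction, and the domain as a whole was not tested.

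Snhg18 (chr15:32240565-32244662, minus strand), host of a small nucleolar RNA, had a low of 3.84, a median of 4.75 and a high of 5.57 CPM in naïve libraries and 9.26, 10.1 and 11.3 CPM in day 7 injured libraries. All 3 were also above the day 7 contralateral libraries at 3.74, 4.37 and 5.34 CPM. The log2 fold change was 1.14 (SE 0.17, FDR 0.00013) against naïve and 1.18 (FDR 0.000591) against contralateral libraries. Miat, a nuclear lincRNA first named in myocardial infarction, had 2.23, 3.55 and 4.995 CPM after injury against 1.21 to 1.79 in naïve libraries. Its log2 fold change was 1.27 (SE 0.27, FDR 0.00256), but it was 0.56 (FDR 0.34) when transcript length was used as an offset, and its injured and contralateral libraries overlapped.

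Gm48898 (chr12:8291024-8293694, minus strand) rose from 0.358 to 0.665 CPM in naïve libraries to 2.32, 3.17 and 2.82 CPM, a log2 fold change of 2.31 (SE 0.24, FDR 3.31e-06), and by 2.29 (FDR 0.000838) against contralateral libraries. It lies 4224 bases from Gdf7, a bone morphogenetic protein family ligand, on the same strand downstream. 4933400C23Rik had 0.173 to 0.490 CPM in naïve libraries and 1.14, 0.9504 and 1.43 CPM after injury, a log2 fold change of 2.0 (SE 0.36, FDR 0.000674), and its nearest coding gene was the collagen lysyl hydroxylase gene Plod2. 5730414N17Rik had 0.245 to 0.795 CPM and then 1.41, 0.9504 and 1.11 CPM, a log2 fold change of 1.55 (FDR 0.00113), beside Kmt2d. These 3 genes are named here without a role, and their injured and naïve libraries did not overlap. Gm10635 had 0 to 0.285 CPM in naïve libraries and 0.590, 0.380 and 0.601 CPM after injury, a log2 fold change of 1.76 (SE 0.50, FDR 0.016), but the call was lost without injured replicate 1 or 3 (FDR up to 0.0712). 2010320M18Rik rose by 0.86 (FDR 0.00209), with 4.81, 4.37 and 2.96 CPM after injury, but the first contralateral library was above all 3 of these at 6.86 CPM. C030037D09Rik rose by 0.84 (FDR 0.0313), a call lost without any 1 of 3 libraries (FDR up to 0.134). That call was also lost without the filter on low counts, in the fit on all 18 libraries and with the length offset (0.71, FDR 0.17).

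**Figure D3:**
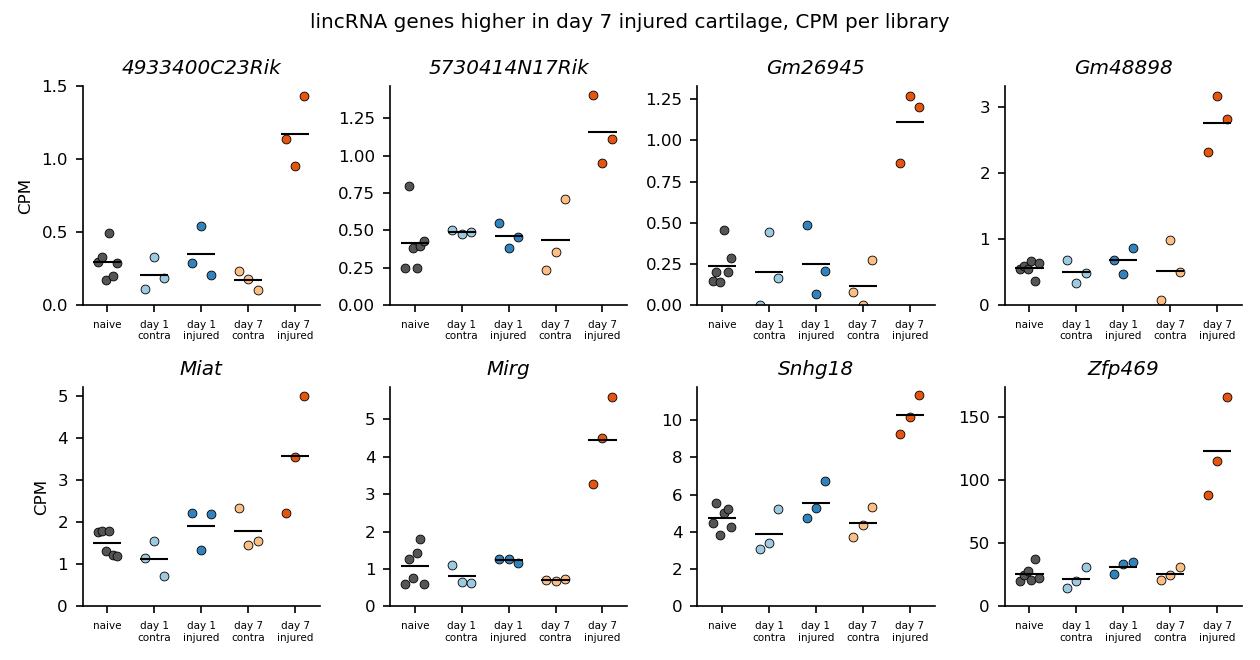
CPM per library (y axis, linear from 0) for the 8 lincRNA genes that were higher in day 7 injured cartilage than in naïve, contralateral and day 1 injured cartilage, with each point a library and each line a group mean. Zfp469 reaches 88.7 to 166 CPM in the day 7 injured libraries and 20.2 to 37.5 CPM in naïve libraries.

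Some rising entries share sequence with other genes, and their values are uncertain. Gm28901 was at 0 in 4 of 6 naïve libraries and at 0.770 and 0.855 CPM in the others, and had 7.08, 9.82 and 8.46 CPM after injury, but the first contralateral library had 14.2 CPM. Its edgeR log2 fold change was 4.80 (SE 1.06, FDR 0.00312), its DESeq2 FDR was 0.199, and 410 of its 474 bases matched Gm6430 at 99.8% identity. The lincRNA entry of Rmrp had 85.7 ± 43.3 CPM in naïve and 169 ± 32.3 CPM at day 7 after injury, for which the log2 fold change was 1.00 (FDR 0.0397), a call lost in 7 of 9 fits without a library (FDR up to 0.141). That call was also lost with the length offset, in the fit on all 18 libraries and with DESeq2 (FDR 0.0595, 0.0532 and 0.0558). A separate ribozyme entry of Rmrp, with which the lincRNA entry shared 271 of 281 bases, was at 1150 and 1400 CPM, with a log2 fold change of 0.30 (FDR 0.297).

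Gm5860 (chr4:82065431-82102808, plus strand) had a low of 0.557, a median of 0.870 and a high of 1.06 CPM in naïve libraries. It had 0.468, 0.669 and 0.237 CPM in contralateral and 0.0908, 0.0634 and 0.185 CPM in injured libraries at day 7, so the injured libraries were below both groups. The log2 fold change was -2.75 (SE 0.43, FDR 0.000197) against naïve and -1.88 (FDR 0.023) against contralateral libraries. C030029H02Rik (chr7:136268324-136318513) had 0.331 to 1.04 CPM and then 0.272, 0.127 and 0.139 CPM, a log2 fold change of -1.92 (FDR 0.00249). Gm6602 (chr3:111881903-112082001) had 0.587 to 1.35 CPM and then 0.272, 0.253 and 0.324 CPM, a log2 fold change of -1.82 (FDR 0.00309). Both were also lower than in contralateral libraries, by log2 fold changes of -1.61 (FDR 0.0164) and -1.60 (FDR 0.0136), and the 3 genes are named here without a role. Gm37306 fell by 2.37, and AC137585.3 had 45 counts in the 6 naïve libraries together and 1 in the 3 injured ones, an 18.3-fold ratio relative to the TMM library sizes, with a 95% exact interval of 3.12 to 739 for counting error only. These 5 genes kept their call against naïve libraries when any 1 naïve or injured library was left out. Against contralateral libraries the Gm5860 call was lost in 3 of 6 such fits (FDR up to 0.126) and the C030029H02Rik call in 2 (FDR up to 0.0884), while Gm6602 kept its call in all 6. The Gm5860 call there was also lost with the length offset (-1.90, FDR 0.105) and with limma-voom (-1.65, FDR 0.102).

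Of the 12 falling genes with the largest fold whose groups did not overlap, the other 7 lost their call without at least 1 library. Gm33630 (log2 fold change -2.10) rested on 34 counts against 3, a 4.61-fold ratio with an interval of 1.45 to 23.5, and lost its call in 3 of 9 such fits (FDR up to 0.106), without the filter on low counts and with DESeq2. A630031M04Rik (-2.04), Gm28587 (-1.96), Gm48762 (-1.80) and AC138457.1 (-1.75) had FDRs of up to 0.0881, 0.0556, 0.105 and 0.0685 without single injured libraries. Gm34794 (-1.77) and Gm47926 (-1.73) lost their call in 6 and 4 of 9 such fits, and with limma-voom (FDR 0.124 and 0.0803). The Gm34794 call was also lost without the filter on low counts and in the fit on all 18 libraries, and the Gm47926 call with DESeq2. Gm29562 (chr9:88827522-88828425), a more abundant gene, had 32.3 to 44.8 CPM in naïve libraries and 26.2, 24.5 and 19.4 CPM after injury, with no overlap and a log2 fold change of -0.69 (SE 0.13, FDR 0.000896), but it was -0.57, under the 1.5-fold limit, without injured replicate 3. Its value is uncertain, because it shared sequence with 15 other genes, the longest match being 907 bases with Gm48161 at 97.2% identity over its own 904 bases.

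**Figure D4:**
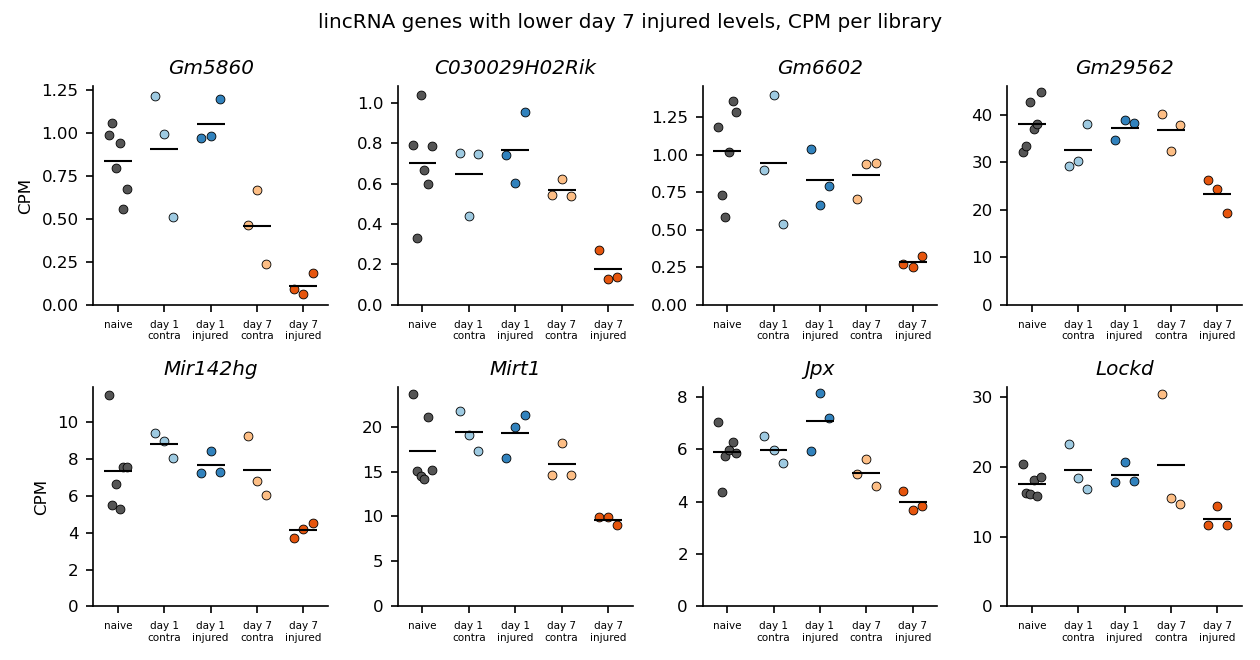
CPM per library (y axis, linear from 0) for 8 lincRNA genes with lower mean levels in day 7 injured cartilage, with each point a library and each line a group mean. For Gm5860, C030029H02Rik, Gm6602, Gm29562, Mir142hg, Mirt1 and Lockd the 3 injured libraries lie below all 6 naïve libraries. Jpx and Lockd did not reach the 1.5-fold limit against naïve libraries.

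Of the 35 miRNA-holding genes, all tested, 1 rose and 4 fell (2.86% and 11.4%, median -0.56), and of 15 snoRNA-holding genes tested 2 rose and 3 fell (13.3% and 20.0%, median -0.36), beside 1.30% and 15.1% of all lincRNA genes. Mir142hg (chr11:87755577-87757270), host of miR-142 of blood cells, had a low of 5.32, a median of 7.11 and a high of 11.5 CPM in naïve libraries, 9.27, 6.82 and 6.08 CPM in contralateral and 3.72, 4.18 and 4.53 CPM in injured libraries at day 7. The injured libraries were below both other groups, with log2 fold changes of -0.81 (SE 0.21, FDR 0.00822) and -0.82 (FDR 0.0227). The second call was lost in 4 of 6 fits without a library, the first contralateral library among them (-0.61, FDR 0.104). Ptprc, which encodes the leukocyte surface protein CD45, had a log2 fold change of -0.33 (FDR 0.007), under the 1.5-fold limit. Median log2 fold changes of the marker lists went both ways, at 0.32 for macrophage, 0.50 for osteoclast, -0.36 for neutrophil and -0.18 for B cell markers. Among the other hosts, A830008E24Rik fell by 0.84, a call lost in 2 of 9 fits (FDR up to 0.0916), and A230057D06Rik, host of miR-344 RNAs shown above, fell by 0.68 (FDR 0.0304), the latter call being lost in 5 of 9 fits without a library. Mir17hg, host of the growth-promoting miR-17 cluster, was at -0.62 (FDR 0.0517) and Mir155hg, of the inflammatory miR-155, at -0.03, and neither passed the test.

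lincRNA genes with a known role were grouped in lists, to be read beside the 1.30% higher and 15.1% lower among all lincRNA genes. Of the X-inactivation list, 3 of 4 genes were members and none was called (median -0.55): Xist, which coats the inactive X chromosome and is low in these male mice, was at -0.64 (FDR 0.21), and its neighbours Ftx and Jpx at -0.52 (FDR 0.0406) and -0.55 (FDR 0.0122). Of 5 genes of the p53 and growth list none was called (median -0.33). Lncpint, induced by p53, was at -0.39 (FDR 0.0415) and Lockd, next to the cell cycle inhibitor gene Cdkn1b, at -0.47 (FDR 0.00953). Both genes of the cytoplasmic RNA list stayed below the fold limit (median 0.16). 2900097C17Rik, the Norad RNA that binds Pumilio proteins, had 266 to 310 CPM in naïve and 391, 382 and 376 CPM in injured libraries, with no overlap, a log2 fold change of 0.43 and an FDR of 0.000421, but 618 CPM in the first contralateral library. Of 5 snoRNA host genes on the list only Snhg18 was called (median 0.20), of 7 genes on the miRNA host list 2 fell (median -0.67), of 4 developmental lincRNA genes Miat rose (median 0.27), and Mirg was the single imprinted member. These medians stand beside -0.50 for all lincRNA genes tested. The 2 falling genes of the miRNA host list were Mir142hg and Mirt1, and no annotated miRNA gene lies within Mirt1 or within Carmn of the same list. Mirt1 had 14.1 to 23.6 CPM in naïve libraries and 9.90, 9.95 and 9.02 CPM after injury, a log2 fold change of -0.82 (SE 0.17, FDR 0.00189).

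The nearest protein-coding gene was examined because some lincRNAs act on, or are transcribed with, their neighbours. Of the 18 lincRNA genes that rose, 8 (44.4%) had a nearest coding gene that rose and none had one that fell. Of the 182 that fell and had a tested neighbour, 25 (13.7%) had a neighbour that rose and 9 (4.95%) one that fell. For the 996 uncalled genes the neighbour rose for 160 (16.1%) and fell for 17 (1.71%). Rising pairs included Gm10635 with the collagen gene Col12a1 (log2 fold change 3.19), Gm48898 with Gdf7 (2.80), Gm26945 and Mirg with Rtl1, 4933400C23Rik with Plod2 (2.21), 2010320M18Rik with Pik3r2 (0.66) and Gm27042 with Aldh18a1 (0.94). Some pairs share a neighbour or a domain, so the pairs are not independent.

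Gm17501 (chr3:145650312-145677580) starts 331 bases from Ccn1 in the opposite direction. It had 1.11 to 1.87 CPM in naïve libraries, 0.234, 1.16 and 1.11 CPM in contralateral and 1.998, 2.79 and 2.22 CPM in injured libraries at day 7, and Ccn1 was at 32.3 ± 10.2 and 82.7 ± 21.8 CPM, with a log2 fold change of 1.37. The lincRNA change was 0.66 (FDR 0.049) against naïve libraries, a call lost in 16 of 21 alternatives, among them 8 of 9 fits that left out a library (FDR up to 0.197), limma-voom, DESeq2 and no filter on low counts, and 1.37 (FDR 0.0153) against contralateral libraries, a call lost in 1 of 6 (FDR 0.0566). By contrast Sema5a, 148 bases from Snhg18, was at 55.6 ± 7.07 and 57.3 ± 5.70 CPM, a log2 fold change of 0.06 (FDR 0.777). Among genes near growth factors, Gm33148 fell (-1.11, FDR 0.00669) 29962 bases from Igf2, which rose by 2.95, and Gm48306 fell (-0.87, FDR 0.0116) 43420 bases from Igf1, which rose by 2.96. The Gm48306 call was lost without injured replicate 1 or 3 (FDR up to 0.0578). Gm14321 was at -1.01 (FDR 0.0386) near Cebpb, a transcription factor gene at 0.02, and its call was lost in 7 of 9 fits without a library and with limma-voom, DESeq2, no filter or the length offset (FDR up to 0.132).

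**Figure D5:**
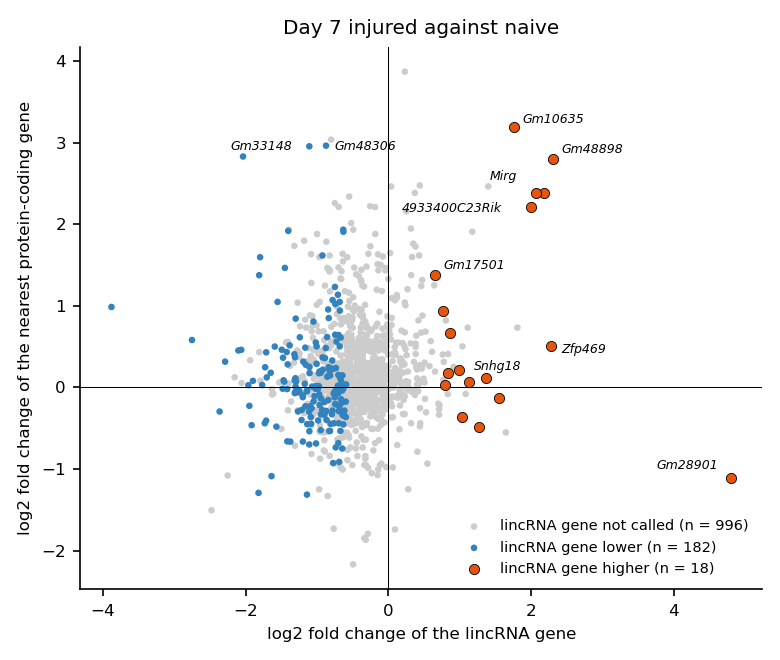
Log2 fold change of each lincRNA gene (x axis) and of its nearest protein-coding gene (y axis) between day 7 injured and naïve cartilage. Each point is 1 lincRNA gene with a tested neighbour, coloured by the call of the lincRNA gene. Of the 18 higher genes 8 have a neighbour that rose, and Gm33148 and Gm48306 lie at the upper left, lower beside a gene that rose.

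The 9 falling genes beside a falling neighbour included 2 beside red cell genes, chosen for mention after their values were seen. Bloodlinc, a lincRNA of erythroid cells, was at a log2 fold change of -1.20 (FDR 0.0223) and lies 9346 bases from Slc4a1, the red cell anion exchanger gene, which was at -0.66. Gm13063 overlaps Epb41, a red cell membrane skeleton gene, on the opposite strand, and fell by 1.37 (FDR 0.00554) while Epb41 fell by 0.66. The erythroid markers above were lower in the same libraries, and their part in these changes was not tested.

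The comparison with the contralateral knee of the same day asked for changes beyond those of the uninjured side. Of 1396 lincRNA genes tested, 19 rose (1.36% beside 9.33% of all genes) and 44 fell (3.15% beside 3.23% of all genes), with a median of -0.24 (-0.27 without the first contralateral library). The share that rose was below the background and the share that fell was close to it. In the fits that left out a library, calls of all genes were not counted, so no background stands beside the next counts. Without injured replicate 3 the lincRNA counts were 6 and 28, and without injured replicate 2 there were 29 lower. Without the first contralateral library, which stood apart, they were 15 and 40. Calls lost without it included Mir142hg, 5730414N17Rik (1.11, FDR 0.0696), 2900045O20Rik (-1.28, FDR 0.0750), Gm28322 (-1.38, FDR 0.0819) and Lockd (-0.25, FDR 0.294), and Gm29562 was then under the fold limit at -0.57. Of these, 11 of the 19 and 30 of the 44 were also called in the same direction against naïve cartilage (11 of 18 and 30 of 209 of the calls there). The comparison with day 1 injured cartilage gave 13 higher (0.940% beside 9.04% of all genes) and 238 lower (17.2% beside 6.38% of all genes) of 1383, with a median of -0.60. In all 3 comparisons 8 genes rose: 4933400C23Rik, 5730414N17Rik, Gm26945, Gm48898, Miat, Mirg, Snhg18 and Zfp469. Against contralateral libraries, leaving out 1 library ended the call of Miat in 4 of 6 fits (FDR up to 0.223), of 5730414N17Rik in 4 (FDR up to 0.0895) and of Gm26945 in 3 (FDR up to 0.0675), and Miat was at 0.06 (FDR 0.966) with the length offset. The other 5 kept their call in all 6. A further 25 fell in all 3 comparisons. The shares of all genes called in all 3 were not counted, so whether these overlaps are particular to lincRNA genes was not tested. The 3 comparisons share the day 7 injured libraries, so these overlaps are not independent.

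No lincRNA gene was called 1 day after injury, and neither was any other gene in edgeR, where 0 of 21129 genes of all types were called in each of the 3 comparisons among day 1 and naïve libraries. Against naïve cartilage, edgeR, limma-voom and DESeq2 each called 0 of 1383, with 64 at an unadjusted P under 0.05 in edgeR (4.63% beside 4.54% of all genes), a smallest FDR of 0.918 and a median of 0.10. Against the day 1 contralateral knee, the 3 tools again called 0, 39 genes had such a P (2.82% beside 6.55% of all genes) and the smallest FDR was 0.755. The smallest FDRs against naïve cartilage belonged to genes such as Lncenc1 at 0.99, Gm20597 at 1.00 and the lincRNA entry of Rmrp at -1.69 on the log2 scale. The day 1 contralateral libraries differed from naïve ones by a median of 0.03, again with 0 calls by each of the 3 tools and 35 at such a P (2.53% beside 2.62% of all genes). The day 7 contralateral knee differed by a median of -0.28, or -0.22 without its first library, with 0 calls by each tool, 188 genes at an unadjusted P under 0.05 (13.5% beside 15.1% of all genes) and a smallest FDR of 0.248. Of 21262 genes of all types, edgeR again called 0, with the same smallest FDR, so the lack of calls was common to all genes. Gm12976 (-0.85) and Gm15907 (-1.32) were among the genes with that FDR.

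The injury effect at day 7 was then set against that at day 1 within 1 model, as the injured minus contralateral difference at day 7 less that at day 1. Of 1396 lincRNA genes 2 had a higher effect at day 7 (0.143% beside 3.53% of all genes) and 5 a lower one (0.358% beside 0.245% of all genes), with a median of -0.30 (-0.32 without the first day 7 contralateral library). Zfp469 had an effect of 2.26 at day 7 and 0.51 at day 1, a difference of 1.74 (SE 0.39, FDR 0.0171), and Mirg of 2.65 and 0.63, a difference of 2.02 (SE 0.53, FDR 0.0414). The 5 with a lower effect were Gm29562 (-0.85, FDR 0.0245), Gm20619 (-1.66, FDR 0.0337), 2900045O20Rik (-2.17, FDR 0.0429), Gm28322 (-2.29, FDR 0.0457) and Platr7 (-1.32, FDR 0.0492). 2900045O20Rik had 1.94, 1.65 and 1.04 CPM in day 1 injured libraries and 0.318, 0.380 and 0.185 CPM in day 7 injured libraries, which did not overlap. Platr7 had 2.18, 1.74 and 1.52 CPM in day 7 contralateral libraries, above all 6 naïve libraries (0.716 to 1.35 CPM), and 0.772, 0.824 and 0.648 CPM in the injured libraries. Each of these 7 calls was sensitive to single libraries, each of the 12 being omitted in turn. Zfp469 lost its call in 3 (FDR up to 0.0750), Gm29562 in 7 (up to 0.0990), Gm20619 in 7 (up to 0.114), 2900045O20Rik in 9 (up to 0.160), Gm28322 in 10 (up to 0.121), Mirg in 11 (up to 0.131) and Platr7 in all 12 (up to 0.153). The calls of Mirg, 2900045O20Rik, Gm28322 and Platr7 were also lost with limma-voom and with the length offset (FDR up to 0.201, for Mirg). Without the filter on low counts, those of Gm20619, 2900045O20Rik, Gm28322 and Platr7 were lost (FDR up to 0.108). Without injured replicate 3 of day 7 all 7 calls were lost, and without the first day 7 contralateral library 5 of them were lost, the exceptions being Zfp469 and Gm20619.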

How the data were processed

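The libraries were stranded total RNA with ribosomal RNA removed. The authors quantified transcripts with kallisto against the mouse transcriptome (GRCm38, release 103, per their methods), and the deposited files give an estimated count and a TPM value per transcript. Whether strand was used in quantification is not given in the sources used here, so overlapping genes are uncertain. The submitters' notes name GRCh38 and DESeq2, but the transcript identifiers are mouse. Transcripts were summed to GENCODE M21 genes and 98.3% matched. Estimated counts were rounded and tested over all genes with edgeR 4.0.16 (quasi-likelihood, TMM, filterByExpr, R 4.3.3), with Benjamini-Hochberg FDR. Contrasts that use day 7 contralateral libraries came from a fit on 18 libraries, and the rest from a fit on the other 15. CPM uses TMM library sizes of all 18, and counts were not corrected for transcript length in the main fit. The study's limma voom model with a mouse correlation could not be repeated, since the labels do not give the mouse pools. DESeq2 1.42.0 and limma-voom (limma 3.58.1) without it were alternatives. The self-test ran on simulated counts. Shared sequence was found with BLAST 2.17.0. The study removed 1 library for low mapping without naming it, and whether it is among the 18 used here is not known. Pools after injury held 4 mice at day 7. For day 1 and naïve pools the sources differ between 2 and 4 mice.

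Genes named were, for day 7 injured against naïve, the 12 higher and 12 lower called genes with the largest fold whose groups do not overlap. Added to these were the 10 highest by TPM, listed genes, called small RNA hosts, called genes nearest to skeletal or matrix genes, and those with the smallest FDR in other comparisons. Members and lists were chosen with earlier results of these data known.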

Additional observations from a re-analysis of the deposited data

Results flagged for a closer look

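Within the 6 naïve libraries, 1 library lay far from the other 5 for 11 of the 83 named lincRNA genes, by a gap larger than 95% of such groups would give. Chance gives such a gap in about 1 in 20 groups, and the 83 genes were measured in the same libraries. Naïve replicate 1 was the high one for Mir142hg at 11.5 CPM (next 7.56), Ftx at 20.9 (next 14.6), Mir124-2hg at 1.14 (next 0.663), Gm28265 at 1.63 (next 0.596) and Gm48306 at 3.75 (next 2.45). Naïve replicate 5 was the high one for Gm33630 at 0.517 CPM (next 0.210), Gm20186 at 71.8 (next 46.3) and Pvt1 at 6.45 (next 4.95). Naïve replicate 2 was high for 5730414N17Rik at 0.795 CPM (next 0.428) and low for 9430037G07Rik at 3.64 (next 5.04), and replicate 3 was high for A630031M04Rik at 0.726 (next 0.428).

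The injury effect differed between day 7 and day 1 for 7 genes by the test of the difference itself in the fit on all 18 libraries, and each of these calls was lost in some fits that left out 1 library. The log2 differences were 1.74 for Zfp469, 2.02 for Mirg, -0.85 for Gm29562, -1.66 for Gm20619, -2.17 for 2900045O20Rik, -2.29 for Gm28322 and -1.32 for Platr7. Of 12 such fits the call was lost in 3 for Zfp469, 7 each for Gm29562 and Gm20619, 9 for 2900045O20Rik, 10 for Gm28322, 11 for Mirg and all 12 for Platr7.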

How the results depend on the processing

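Counts are given as higher and lower lincRNA genes. Calls of all genes were not counted under these settings. Whether a change in the counts is particular to lincRNA genes was therefore not tested. At an FDR of 0.01 the calls were 10 and 65 against naïve, 6 and 9 against contralateral, 7 and 70 against day 1 injured, and 0 and 0 for day 7 minus day 1. With genes that overlap no other gene they were 11 and 137, 9 and 30, 6 and 149, and 0 and 3. With transcripts of 2 or more exons, 11, 7 and 1 genes were higher against naïve, day 1 injured and for day 7 minus day 1, and 3 were lower in the last. The contralateral comparison gave 28 lower without the filter on low counts and 26 with limma-voom. Day 7 minus day 1 gave 1 higher and 2 lower with the length offset and with limma-voom, 1 lower without the filter and 10 lower with DESeq2. Leaving out 1 library gave 13 to 18 higher and 138 to 239 lower against naïve, 6 to 21 and 28 to 52 against contralateral, and 0 to 2 and 0 to 5 for day 7 minus day 1. Without the top gene of each library the mean shares were 0.403%, 0.431%, 0.452% and 0.293% in naïve, day 1 contralateral, day 1 injured and day 7 injured libraries. Scaled by the TMM factors, an alternative chosen after seeing the data, the mean shares were 0.461%, 0.469% and 0.398% in the last 3 of these groups. The day 7 contralateral means were 0.343% without the top gene and 0.427% scaled by the TMM factors. Of 44 named genes called at day 7 against naïve, 17 kept the call under every alternative in which they were tested, and no named gene's fold change was reversed. Of the calls against naïve, DESeq2 shared 13 of 18 and 178 of 209. The exclusion of ribosomal RNA loci was not run because none was a member. No paired analysis was possible because the labels give no shared replicate numbers. Most genes here had under 1 CPM, which limits the precision of single genes.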
